A study of Mus musculus with 13 samples.

Results

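Of 17899 candidate C/EBPα regions called in LSK cells, 320 (1.79%) were at least 1000 bp wide. These wide regions were chosen by width alone, as the end minus the start of each region in the deposited list, and were set beside the remaining 17579 regions. Width is itself a readout of the peak call, so the widths and scores of the wide regions are given as a description. LSK cells are the lineage-negative, Sca-1- and c-Kit-positive fraction of the bone marrow, a population that holds the hematopoietic stem cells and multipotent progenitors. The study asked where C/EBPα is bound in these cells by ChIP-seq, which sequences the DNA pulled down from crosslinked chromatin by an antibody, here 14-AA from Santa Cruz. The list is deposited with 1 library of sorted LSK cells, whose strain is given as C57BL/6 with floxed Cebpa alleles and Mx1Cre, a Cre under the interferon-inducible Mx1 promoter, and whose labels give no genotype, treatment or age. No file of the other 12 samples was analysed here, and whether reads of another LSK library were pooled into the list is not given in the sources used here. There is thus no replicate check on any value and no test was run. Intervals are exact 95% intervals that cover counting error only, and they treat the regions as independent.

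C/EBPα, the product of Cebpa, is a basic leucine zipper protein that binds DNA as a dimer at short, partly palindromic sites and is known for driving granulocyte and monocyte formation. A peak caller turns the local pile of ChIP reads into a region with a start and an end, so a single bound site gives a region about as wide as the DNA fragments allow, and a wider region means that enriched reads continued for longer along the chromosome. Mammalian genomes also hold sequence present in several near-identical copies, such as duplicated gene families, tandem repeats and nuclear copies of mitochondrial DNA, where short reads cannot be assigned to 1 place. Promoters of widely used genes often lie in CpG islands, which are rich in G, C and CpG.

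The wide regions fell into groups of different make-up. Using 32-base words of the genome, 113 of the 320 (35.3%, 95% interval 30.1 to 40.8%) were multi-copy, meaning that at least 50% of their words occurred at more than 1 position of the assembly. Of the regions under 1000 bp, 9.29% (8.86 to 9.73%) were multi-copy. Regions with a lower share of such words are called single-copy below, though they can hold some. Of the 207 single-copy wide regions, 95 (45.9%, 39.0 to 52.9%) had no multi-copy word. A further 57 wide regions were not multi-copy and had their centre within 5 kb of the transcription start site (TSS) of a protein-coding gene. The last 150 were neither, and are called distal below. The multi-copy regions made up 46.2% of the 445.3 kb that the wide regions covered, the distal regions 38.1% and the regions near a TSS 15.7%.

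The DNA at the highest-scoring single-copy wide regions is shown first, because the C/EBP word lay close to the middle of most of them. The word searched on both strands was TTACNNAA or TTGCNNAA, where N is any base, and its palindromic form is TTGCGCAA. The windows below are 60 bases of mm9 on the plus strand around the word nearest to the region's centre, with every C/EBP word in capitals. They come from the regions with a score of at least 200 and were picked, after their values were seen, to show the different forms of the word and genes of known function. Windows that touched a UTR were left out.
Rnf149 (chr1:39634375-39634434): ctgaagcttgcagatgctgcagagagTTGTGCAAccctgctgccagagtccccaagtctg
Aacs (chr5:125956004-125956063): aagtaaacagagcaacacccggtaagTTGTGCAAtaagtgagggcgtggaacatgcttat
Emilin2 (chr17:71649845-71649904): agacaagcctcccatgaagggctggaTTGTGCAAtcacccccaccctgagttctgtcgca
Sfpi1 (chr2:90938493-90938552): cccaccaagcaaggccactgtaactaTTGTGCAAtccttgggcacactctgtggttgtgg
Sulf2 (chr2:166060583-166060642): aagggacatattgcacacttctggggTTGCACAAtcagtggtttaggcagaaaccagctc
Ppia (chr11:6315350-6315409): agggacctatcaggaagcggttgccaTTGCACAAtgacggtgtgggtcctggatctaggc
Tnfrsf1b (chr4:144831030-144831089): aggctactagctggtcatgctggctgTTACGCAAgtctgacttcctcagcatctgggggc
Ptger2 (chr14:45657951-45658010): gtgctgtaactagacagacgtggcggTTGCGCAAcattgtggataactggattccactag
Prkag2 (chr5:24607119-24607178): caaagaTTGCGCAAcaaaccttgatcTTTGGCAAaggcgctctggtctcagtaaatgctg
Rcn1 (chr2:105268423-105268482): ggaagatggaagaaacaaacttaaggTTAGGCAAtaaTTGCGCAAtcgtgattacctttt

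In the region upstream of Rnf149 the middle of the word lay 3 bp from the region's centre, and in those in the Sfpi1 intron and upstream of Sulf2 it lay 1 bp from it. The forms TTGTGCAA and TTGCACAA are the same site read from opposite strands. The windows of Prkag2 and Rcn1 hold a second word within the same 60 bases. The windows were picked to show words, so they do not give the share of regions with a word, which follows further on.

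The widths of the 320 regions ran from 1000 to 9052 bp, with a median of 1104 bp and quartiles of 1039 and 1283 bp. Widths were thus concentrated just above the limit, with 153 regions under 1100 bp and 31 of 2000 bp or more. The remaining regions had a median width of 586 bp. On the inside of the limit stood a region of 1000 bp 36 bp upstream of the TSS of Spry4, which encodes an inhibitor of receptor tyrosine kinase signalling, with a score of 671.59. Beside it were a region of 1000 bp with a score of 54.81 in an intron of Aven and one of 1001 bp with a score of 232.53 at Klhl24. Just outside were a region of 999 bp at Bmf with a score of 117.11, one of 999 bp near Scube1 with a score of 52.52 and one of 998 bp near Ifitm3 with a score of 130.77. Scores thus ran from 54.81 to 671.59 in the 3 regions inside the limit and from 52.52 to 130.77 in the 3 outside.

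The score comes with the list and rises as the p-value of MACS, the peak caller, falls (10 x -log10 p), and its lowest value is that of the calling limit, a p of 1e-05. Its median was 99.69 in the wide regions and 73.49 in the others. A score of at least 200 was reached by 49 wide regions (15.3%, 11.5 to 19.7%) and by 319 of the others (1.81%, 1.62 to 2.02%). Of the 100 highest scores in the whole list, 20 belonged to wide regions. Within the wide regions, the score did not climb with width. Spearman's rho between width and score was -0.25 over the 320 regions and -0.17 over the 207 that were not multi-copy, a description across regions of 1 library. The regions of 2000 bp or more had a median score of 86.44 and those of 1000 to 1049 bp a median of 115.78.

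**Figure D1:**
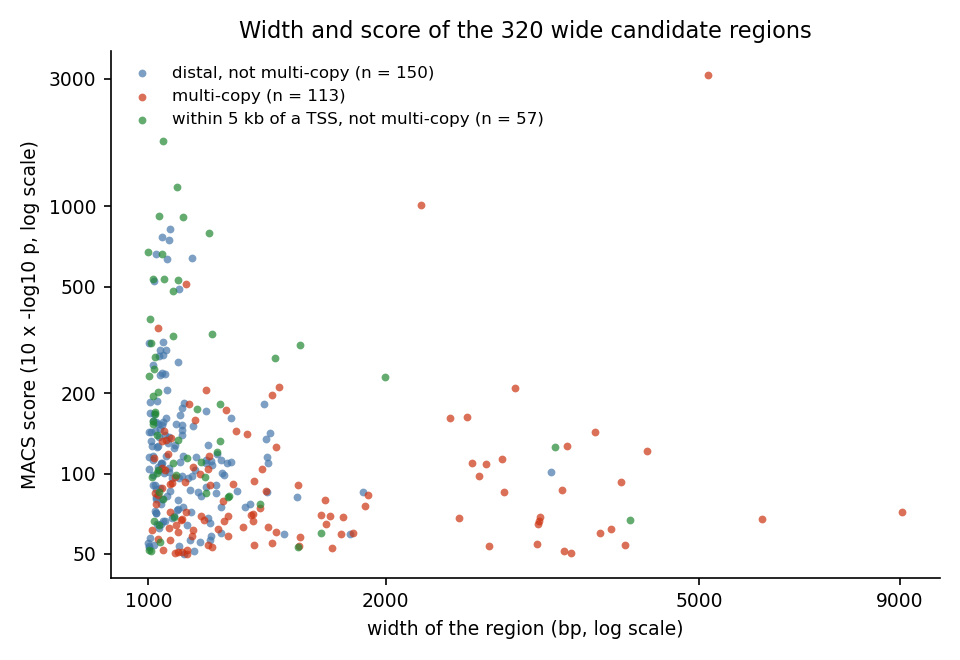
Width (bp, log scale) against MACS score (10 x -log10 p, log scale) of the 320 wide regions, 1 point a region, coloured by whether the region was multi-copy, near a TSS or distal. Most points of 2000 bp or more are multi-copy (28 of 31) and lie at low scores, while the high scores of the other 2 groups lie close to the limit of 1000 bp.

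What the wide regions were made of changed with their width. Multi-copy regions made up 7.80% (7.29 to 8.32%) at 400 to 599 bp, 11.2% (10.4 to 12%) at 600 to 799 bp and 15% (11.5 to 19.2%) of the 353 regions of 900 to 999 bp. They made up 12.9% (7.04 to 21.0%) of the 101 regions of 1000 to 1049 bp and 35.6% (23.6 to 49.1%) of the 59 regions of 1100 to 1199 bp. The share was 43.9% (30.7 to 57.6%) of the 57 regions of 1200 to 1499 bp and 90.3% (74.2 to 98.0%) of the 31 regions of 2000 bp or more. Of the 113 multi-copy wide regions, 48 lay in groups of at least 3 neighbouring wide regions, described below. Such neighbours are not independent, so the intervals of the multi-copy shares of wide regions are too narrow. The share with a centre within 5 kb of a TSS went from 8.73% (8.20 to 9.28%) at 400 to 599 bp to 23.5% (19.2 to 28.3%) at 900 to 999 bp and 29.7% (21.0 to 39.6%) at 1000 to 1049 bp, and showed no further order above this. CpG-island-like centres made up 1.66% (1.43 to 1.93%) at 400 to 599 bp and 24.8% (16.7 to 34.3%) at 1000 to 1049 bp. They made up 0 of the 31 widest, with an exact upper limit of 11.2%. All 3 shares were thus already higher at 900 to 999 bp than at 400 to 599 bp.

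**Figure D2:**
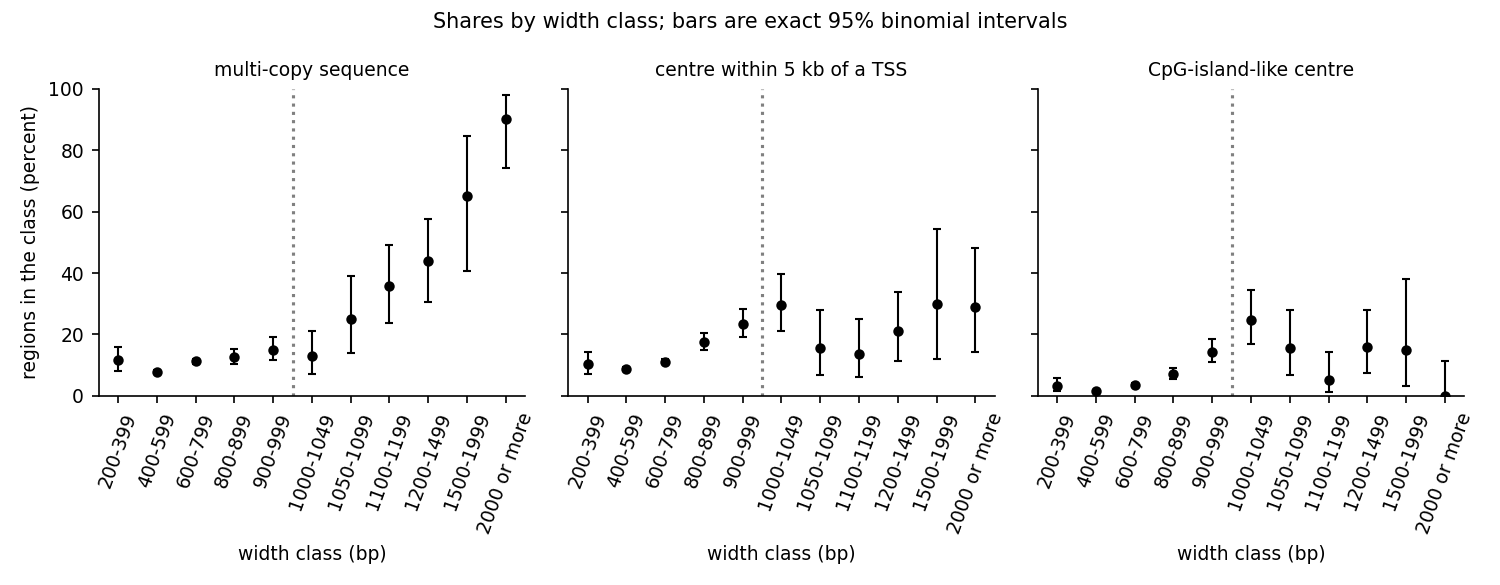
Percent of regions in each width class (bp) that were multi-copy, had a centre within 5 kb of a TSS or had a CpG-island-like centre, with exact 95% binomial intervals as bars. The dotted line is the limit of 1000 bp. The multi-copy share goes from 12.9% just above the limit to 90.3% at 2000 bp or more, while the shares near a TSS and with CpG-island-like centres are already higher just below the limit.

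Wide regions lay closer to a TSS than the others. The centre was within 5 kb of a TSS in 73 of 320 wide regions (22.8%, 18.3 to 27.8%) and in 1793 of 17579 others (10.2%, 9.76 to 10.7%). It was within 1 kb in 41 wide regions (12.8%, 9.35 to 17.0%) and in 3.40% (3.13 to 3.67%) of the others. The median distance to a TSS was 25115 bp in the wide regions and 41175 bp in the others, and 111 wide regions (34.7%, 29.5 to 40.2%) were still over 50 kb away. Among regions that were not multi-copy, the share within 5 kb was 27.5% (21.6 to 34.2%) of 207 wide regions and 10.4% (9.97 to 10.9%) of the others. These intervals do not overlap.

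By the annotation at the centre, 176 wide regions (55%, 49.4 to 60.5%) were intergenic and 122 (38.1%, 32.8 to 43.7%) intronic, against 53.2% and 40.8% of the others. Coding exons held 12 wide regions, 5′ UTRs 5 and 3′ UTRs 5. The share in 5′ UTRs was 1.56% (0.509 to 3.61%) in the wide regions and 0.518% (0.417 to 0.635%) in the others, with intervals that overlap. The multi-copy wide regions were intergenic in 73.5% (64.3 to 81.3%), close to the 75.8% of the multi-copy regions under 1000 bp. Wide regions that were not multi-copy were intergenic in 44.9% (38.0 to 52.0%).

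A CpG-island-like centre, meaning at least 50% G and C and a ratio of observed to expected CpG of at least 0.6 in the central 500 bp, was found in 48 wide regions (15%, 11.3 to 19.4%) and in 2.81% (2.57 to 3.07%) of the others. Of these 48, 32 were among the 57 single-copy regions near a TSS, 8 among the 150 distal regions and 8 among the multi-copy regions. Within 1 kb of a TSS, 29 of 37 single-copy wide regions (78.4%, 61.8 to 90.2%) had such a centre, against 249 of 562 other regions (44.3%, 40.1 to 48.5%). In these 37 regions the median distance from centre to TSS was 162 bp, with 23 centres upstream and 14 at or downstream of the TSS. In the 562 others the median distance was 297 bp, with 263 upstream and 299 at or downstream. The mean GC content was 51.2% in the wide regions and 44.6% in flanks of the same length that started 1000 bp outside them, against 49.0% and 43.7% in the others.

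The promoter regions with the highest scores belonged to genes of general cell function. At Brp44, which encodes a subunit of the mitochondrial pyruvate carrier, a region of 1045 bp (chr1:167390627-167391671) was centred 19 bp upstream of the TSS with a score of 1757.38, the highest of all single-copy wide regions. At Rnf149, which encodes a RING-type ubiquitin ligase, a region of 1086 bp (chr1:39633865-39634950) was centred 158 bp upstream with a score of 1175.82. At Abcc5, which encodes an ABC transporter, a region of 1031 bp (chr16:20425915-20426945) was centred 37 bp downstream of the TSS, in exon 1, with a score of 920.14. At Rbm39, which encodes a splicing factor, a region of 1107 bp (chr2:156005497-156006603) was centred 76 bp upstream with a score of 912.29. The Brp44 and Abcc5 regions hold 1 C/EBP word each, the palindrome TTGCGCAA in both, the Rnf149 region holds 2 words and the Rbm39 region none.

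Further promoters with a wide region, named after their values were seen, include Aacs, which encodes acetoacetyl-CoA synthetase, with a score of 663.51 and Prkag2, which encodes a regulatory subunit of the AMP-activated kinase, with a score of 533.85. Others were Pcf11 (532.75), Etf1, the translation termination factor (528.97), Rps29 (378.13), Ppia, which encodes cyclophilin A (480.86), Ccng2, cyclin G2 (273.97), and Hjurp, a centromeric histone chaperone, whose region of 1999 bp had a score of 229.94. Nfil3, which encodes a basic leucine zipper factor, had a region of 1233 bp with a score of 181.84 and 3 C/EBP words. At Sephs2, which encodes a selenophosphate synthetase, a region of 1016 bp held 6 C/EBP words, 5.91 per kb, the highest density among the single-copy wide regions. It was followed by Prkag2 (3.94 per kb), a region 144 kb from Zfp608 (3.91 per kb), one 50107 bp from the TSS of Ptger2 (3.84 per kb) and one 1117 bp upstream of Spred1 (3.72 per kb). A pair of the Prkag2 words is printed above.

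As in the regions under 1000 bp (40.8% intronic and 53.2% intergenic), distal wide regions with high scores lay mainly in introns and intergenic sequence. The highest was 10115 bp upstream of the TSS of BC005537 (chr13:24882879-24883942) with a score of 822.89, followed by one in intron 2 of Emilin2, which encodes an extracellular matrix glycoprotein (chr17:71649326-71650365, score 763.84). One of 1061 bp lay 79451 bp upstream of the TSS of Sulf2, which encodes a heparan sulfate sulfatase (chr2:166060084-166061144, score 747.25). Each of the 3 holds 1 C/EBP word. The regions named next lay below the 10 highest and were picked after their values were seen. A region lay in intron 1 of Sfpi1, which encodes the myeloid factor PU.1 (chr2:90937954-90939090, score 637.44). Its centre was 15975 bp from the TSS of the longest Sfpi1 transcript, and starts of other transcripts may lie nearer. Another lay in intron 1 of Tnfrsf1b, a TNF receptor gene (chr4:144830517-144831533, score 526.11, centre 5748 bp from the TSS). Others were found 79154 bp upstream of the TSS of the cell cycle inhibitor gene Cdkn2b (290.86) and in intron 4 of the DNA repair gene Xpc (261.21).

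A pair of wide regions lay upstream of Klrb1b, a gene for a natural killer cell receptor. They were 12654 and 17560 bp from its TSS, with scores of 634.17 and 277.44, and both have the palindrome within 24 bp of their centre. The 60 bases around it are shown because the pair resemble each other.
Klrb1b, 12654 bp upstream (chr6:128788991-128789050): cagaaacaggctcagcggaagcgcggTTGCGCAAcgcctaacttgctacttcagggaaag
Klrb1b, 17560 bp upstream (chr6:128793855-128793914): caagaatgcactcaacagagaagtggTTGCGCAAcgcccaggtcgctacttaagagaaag
Of the 60 bases, 42 (70%) are the same at the same position, and of the 26 bases to the right of the word 20 are the same. Even so, only 13.8% and 0.593% of the 32-base words of these regions occur elsewhere in the genome, and both count as single-copy.

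C/EBP words were counted over whole regions and around their centres. The wide regions held 382 words in 445.3 kb, 0.858 per kb (0.774 to 0.948, SD over 20 chromosomes 0.412). The others held 0.784 per kb (0.767 to 0.801, SD over 21 chromosomes 0.0755), and the flanks held 0.959 and 0.955 per kb. Over their whole length, the wide regions therefore did not exceed the other regions beyond counting error, and neither set exceeded its flanks. The reversed letters AANNCATT or AANNCGTT, which have the same base composition, gave 0.557 per kb (0.49 to 0.631) in the wide regions, 0.633 per kb in the others and 0.948 and 0.959 per kb in the flanks. In the central 500 bp, the C/EBP word reached 1.07 per kb (0.915 to 1.24) in the wide regions and 0.781 per kb (0.763 to 0.8) in the others, while the reversed word reached 0.487 (0.385 to 0.608) and 0.598 per kb. At least 1 C/EBP word lay within 250 bp of the centre in 126 wide regions (39.4%, 34 to 45.0%) and in 31.2% (30.5 to 31.9%) of the others.

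The words gathered near the centre in the single-copy wide regions. In these 207 regions, the 100 bases left of the centre held 1.98 words per kb (1.42 to 2.69) and the 100 bases right of it 1.69 (1.18 to 2.35). The other bins up to 1500 bp from the centre held between 0.338 (0.136 to 0.697) and 1.16 (0.743 to 1.73), and the intervals of the highest of them overlap those of both central bins. In the 113 multi-copy regions, the same central bins held 0.973 (0.486 to 1.74) and 0.531 (0.195 to 1.16) words per kb, within the range of the bins around them. In the single-copy regions under 1000 bp they held 0.81 (0.767 to 0.856) and 0.804 (0.761 to 0.849), above the reversed word at 0.525 (0.49 to 0.562) and 0.542 (0.506 to 0.579) but below the flanks.

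**Figure D3:**
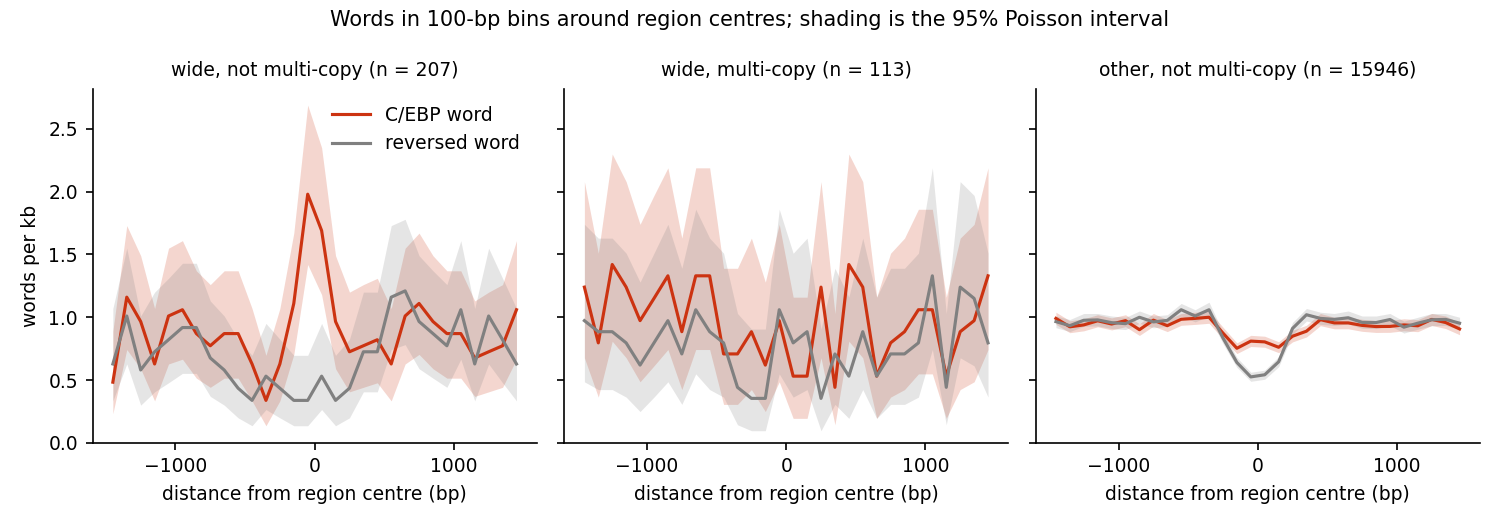
Density of the C/EBP word and of the reversed word (words per kb) in 100-bp bins up to 1500 bp from the centre, for single-copy wide regions, multi-copy wide regions and single-copy regions under 1000 bp; shading is the 95% Poisson interval. The C/EBP word rises to 1.98 per kb at the centre of the single-copy wide regions, where the reversed word is low, and has no such rise in the multi-copy wide regions.

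Since the wide regions had higher scores, the same values were taken by score. At a score of at least 200, the central 500 bp of single-copy regions held 2.52 words per kb (1.89 to 3.30) in 42 wide regions and 2.30 per kb (2.07 to 2.55) in 311 others, with intervals that overlap. At scores of 60 to 100 the densities were 0.645 (0.394 to 0.996) in 62 wide regions and 0.724 (0.699 to 0.749) in 9042 others. At scores of 100 to 200 they were 1.24 (0.925 to 1.62) in 84 wide regions and 0.893 (0.845 to 0.944) in 2826 others. The intervals thus overlap in each of these classes, which does not show that the densities are equal. The position of the words did differ at high scores. Of the 42 wide regions, 30 (71.4%, 55.4 to 84.3%) had a word within 50 bp of the centre, against 112 of the 311 others (36.0%, 30.7 to 41.6%). For the reversed word the shares were 7.14% (1.50 to 19.5%) and 2.89% (1.33 to 5.42%). At scores of at least 400 the C/EBP shares were 78.9% (54.4 to 93.9%) of 19 and 36.5% (27.7 to 46.0%) of 115, and at 200 to 400 they were 65.2% (42.7 to 83.6%) of 23 and 35.7% (29 to 42.9%) of 196. This distance and these score classes were chosen after the data were seen. At scores of 60 to 100 the share was 4.84% (1.01 to 13.5%) in the wide regions and 7.06% (6.54 to 7.60%) in the others.

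CpG-island-like centres were also more common in wide regions of the same score, except at scores of 100 to 200, where the intervals overlap. At a score of at least 200 they made up 22 of 42 single-copy wide regions (52.4%, 36.4 to 68.0%) and 77 of 311 others (24.8%, 20.1 to 29.9%). At scores of 100 to 200 they made up 5.95% (1.96 to 13.3%) and 2.83% (2.25 to 3.51%). At scores of 60 to 100 they made up 14.5% (6.86 to 25.8%) and 1.61% (1.37 to 1.90%), and at 50 to 60 they made up 21.1% (6.05 to 45.6%) and 1.81% (1.4 to 2.28%).

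**Figure D4:**
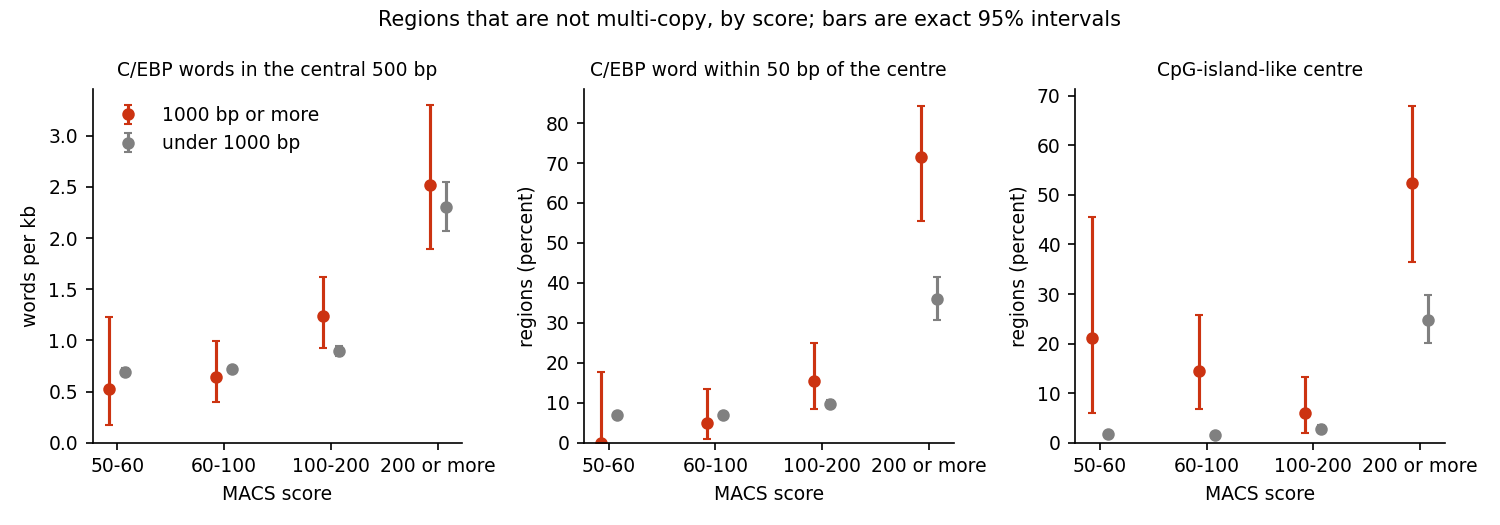
Single-copy wide regions (red) and single-copy regions under 1000 bp (grey) by MACS score: C/EBP words per kb in the central 500 bp, percent of regions with a C/EBP word within 50 bp of the centre, and percent with a CpG-island-like centre, with exact 95% intervals as bars. The intervals of the word densities overlap in every class. At scores of at least 200 the wide regions are higher in the other 2 panels (71.4% against 36.0%, and 52.4% against 24.8%).

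The palindrome TTGCGCAA occurred in 16 wide regions, once in each, and 15 of the 16 copies lay within 250 bp of the centre. None of the flanks of the wide regions held it, with an exact upper limit of 0.00419 per kb. None of the 16 regions was multi-copy, 10 were near a TSS, and their scores ran from 142.76 to 1757.38 with a median of 292.16. They include the regions at Abcc5, Brp44, Nfil3, Nfkbia, Prkag2, Ptgs2, Rcn1 and Spty2d1, those by Ptger2 and Ndufb9 and both regions by Klrb1b. The other regions held 166 copies, with 26 in their flanks. At a score of at least 200, the palindrome occurred in 10 of 49 wide regions and in 73 of 319 others.

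Words of other factors were counted in the same way. The ETS word, NGGAAGN with A or C as the first N and C or T as the last, bound by PU.1 and its relatives, reached 0.712 per kb (0.636 to 0.795) in the wide regions and 0.714 (0.698 to 0.730) in the others. The SP1 word CCCGCCC, common in CpG islands, reached 0.222 per kb (0.181 to 0.271) in the wide regions, 0.125 (0.119 to 0.132) in the others and 0.731 (0.545 to 0.962) in single-copy wide regions near a TSS. The GATA word AGATAA reached 0.44 per kb (0.381 to 0.506) and 0.436, below the flanks at 0.587 and 0.649. The RUNX word, TGNGGTN with C or T at each N, reached 0.638 per kb (0.566 to 0.716, SD over chromosomes 0.705) in the wide regions and 0.478 (0.465 to 0.491) in the others. However, 71 of the 284 RUNX words (25%) lay in 3 regions of internally repeated sequence, near Rpl29-ps5 (34 words), Mlc1 (24) and Capn5 (13). Without these 3 regions the density was 0.482 per kb (0.419 to 0.551), and no difference from the others was left beyond counting error.

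The 113 multi-copy wide regions had a median width of 1317 bp and a median score of 74.02, and 7 of them reached a score of 200. In 37 of them at least 20% of the 32-base words were repeated within the region itself. Among the other 76, the median word occurred at 2 to 10 positions in 67 regions, at 12 to 13 positions in 4 and at over 100 positions in 5. Their flanks were multi-copy in 88 of the 113 (77.9%, 69.1 to 85.1%), against 49.6% (47.1 to 52.1%) of the multi-copy regions under 1000 bp and 1.45% (0.300 to 4.18%) of the single-copy wide regions. Short reads from such sequence match several places equally well. What share of the reads under these regions was of that kind was not tested, because the list holds no reads.

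**Figure D5:**
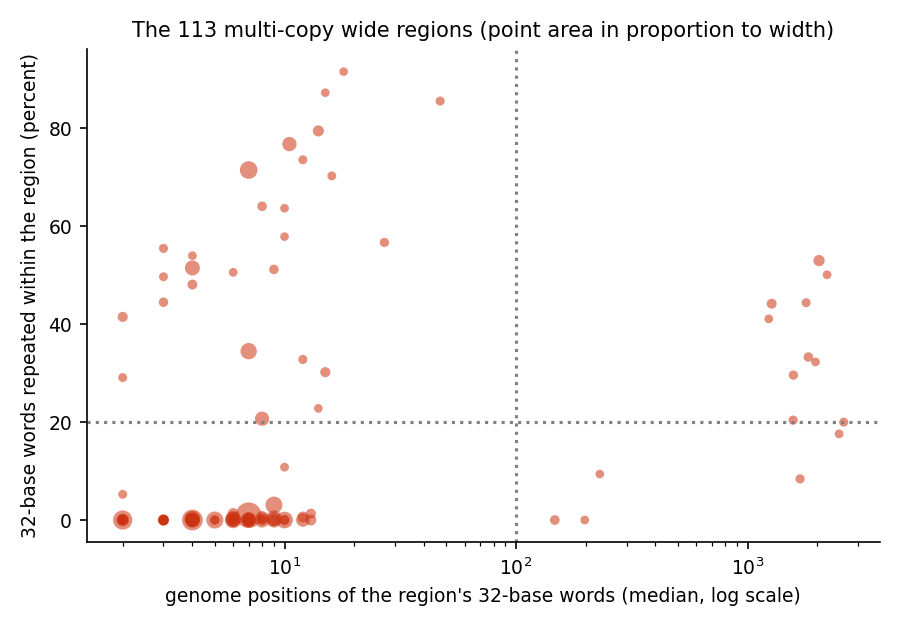
The 113 multi-copy wide regions by the median number of genome positions of their 32-base words (log scale) and by the percent of words repeated within the region; the area of a point is in proportion to the region's width and the dotted lines mark 100 positions and 20%. The points form groups with few copies elsewhere and no internal repeat (low left), internal repeats (upper left) and words at over 1000 positions (right).

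The widest regions were mostly low-copy and clustered. On chromosome 1 (chr1:84958603-85330269), 16 wide regions of 1071 to 9052 bp lay within 371.7 kb, where the list held 19 candidates in all. All 16 were multi-copy, with a median of 8 positions per word, and their scores ran from 51.27 to 162.81. The nearest genes were A530032D15Rik, C130026I21Rik and Slc16a14. The widest region of the list lay here, with 9052 bp in intron 1 of C130026I21Rik (chr1:85241166-85250217) and a score of 72.07, and its neighbour of 3867 bp ended 18 bp before it. A second cluster of 5 wide regions, all multi-copy, lay at Sp110, a gene for a nuclear body protein (chr1:87378770-87482962), with widths up to 3981 bp and scores of 53.05 to 93.19. On chromosome 5 (chr5:14871884-15170198), 8 wide regions, 7 of them multi-copy, lay near Gm9758, Gm10354, Gm17019 and 4930572O03Rik, with the second widest region of the list (6004 bp, score 67.53). In all, 12 clusters of at least 3 wide regions less than 500 kb apart held 59 of the 320, and 48 of the 59 were multi-copy. Annotated pseudogenes overlapped 12 wide regions (3.75%, 1.95 to 6.46%) and 0.501% (0.402 to 0.616%) of the others, and 8 of the 12 lay in the 2 clusters of chromosome 1. Overlap was counted over the whole region, so it becomes more likely with width, by which the wide regions were chosen.

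A word at the median copy number of a region in each cluster of chromosome 1 is shown. The pair has a run of 21 bases in common, which begins with acgtgg. It was picked by comparing such words between the wide regions nearest to A530032D15Rik and Sp110, and no other pair shared a long run. Each word is 32 bases on the plus strand. Sharing with another wide region of the same cluster, at 10% or more of the 32-base words of the smaller region, was found for 6 of the 16 in the first cluster and 0 of the 5 at Sp110.
A530032D15Rik (chr1:85159653-85159684, at 9 positions): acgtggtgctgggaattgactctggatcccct
Sp110 (chr1:87386989-87387020, at 9 positions): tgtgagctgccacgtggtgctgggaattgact

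Internal repeats were seen in 44 wide regions, 37 of them multi-copy and 7 with under 50% multi-copy words. The most frequent distance between copies of the same word ran from 12 to 2397 bp with a median of 76.5 bp. A 4293 bp region near Muc19, a mucin gene (chr15:91736701-91740993, score 121.47), had 71.5% of its words repeated within it, most often 489 bp apart. The highest shares were 91.6% in a region of 1028 bp in an intron of the leptin receptor gene Lepr and 87.3% in one of 1040 bp in intron 3 of Mlc1. In the latter every 32-base word was multi-copy. Their units are printed below to show that they differ from each other, each as its most frequent form with the number of identical copies in the region, and they were picked after their values were seen.
Lepr, 24 bp unit, 27 copies (chr4:101441948-101441971): gtagatgctacagctctggtcagt
Mlc1, 42 bp unit, 13 copies (chr15:88805590-88805631): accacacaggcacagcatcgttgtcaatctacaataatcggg
Gm10037, 32 bp unit, 28 copies (chr13:67942217-67942248): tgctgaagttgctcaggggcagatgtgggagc
Gfra2, 24 bp unit, 19 copies (chr14:71810223-71810246): ccctgatgctcacacaggctcctg
Ntpcr, 48 bp unit, 28 copies (chr8:128328608-128328655): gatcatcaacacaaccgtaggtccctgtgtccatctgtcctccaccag
These 5 regions hold 0 C/EBP words. The regions named for Gfra2 and Ntpcr carry the name of the gene with the nearest TSS, and the latter lies in intron 22 of Pcnxl2.

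In 15 multi-copy wide regions the median word occurred at 147 to 2602 positions, and 10 of these also had internal repeats. They were 1021 to 1756 bp wide, had scores of 56.49 to 205.71 and a mean GC content of 58.5%. They held 32 C/EBP words, 1.79 per kb (1.23 to 2.53), in 9 of the 15 regions, against 0.713 per kb (0.597 to 0.844) in the multi-copy regions of fewer copies. Their SP1 density was 0.953 per kb (0.555 to 1.53), against 0.0372 (0.015 to 0.0767). Copies of the same sequence are not independent, so these intervals are too narrow. The words shown are those at the median copy number of the regions nearest to Prlhr and 3110082D06Rik, which share a run of 21 bases on opposite strands.
Prlhr (chr19:60424004-60424035, at 1271 positions): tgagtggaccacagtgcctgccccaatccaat
3110082D06Rik (chr17:41855923-41855954, at 1235 positions): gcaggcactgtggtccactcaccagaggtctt

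The highest score of the whole list, 3104.89, belonged to a multi-copy wide region of 5130 bp on chromosome 1 (chr1:24618045-24623174), 1017 bp from the TSS of Gm10925. Of its 32-base words, 89.5% also occur in the mitochondrial genome, and these cover positions 6394 to 11042 of it, with the whole of mt-Co2, mt-Atp8, mt-Atp6, mt-Co3 and mt-Nd4l and parts of mt-Co1, mt-Nd3 and mt-Nd4. A region of 2216 bp in intron 30 of Myo3a (chr2:22443720-22445935), the 4th highest score among the wide regions at 1007.77, had 47.1% of its words in mitochondrial DNA, between positions 4640 and 6775. It overlaps the pseudogenes Gm13339 and Gm13340. Another region of 1050 bp (chr13:85266292-85267341, score 235.9) had 19.5% of its words there, between positions 12477 and 13271, and was not multi-copy by the limit of 50%. A 32-base word of each of the first pair, on the plus strand of the nuclear chromosome, shows the match, and each also occurs once in mitochondrial DNA.
Gm10925 (chr1:24620610-24620641; mitochondrial 8776 to 8807): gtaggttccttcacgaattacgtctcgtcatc
Myo3a intron (chr2:22444823-22444854; mitochondrial 5641 to 5672): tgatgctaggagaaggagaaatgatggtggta
How many reads at these places came from mitochondrial DNA was not tested. The remaining 317 wide regions shared no 32-base word with the mitochondrial genome.

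By chromosome, wide regions made up between 0.536% of the candidates (5 of 932 on chromosome 9) and 5.92% (9 of 152 on chromosome X). On chromosome X 8 of the 9 were multi-copy, and on chromosome 1 24 of 35 were. Chromosome Y had 6 candidates, of which 0 were wide. Wide regions within 10 kb of an assembly gap or a chromosome end numbered 6 (1.88%, 0.691 to 4.04%), against 0.262% (0.192 to 0.349%) of the others. Among them are the regions of 4081 and 3282 bp at the end of chromosome 13, 66 bp apart, at 3110070M22Rik and Gm7120. With 12.1% and 9.2% multi-copy words they are among the 3 regions of 2000 bp or more that were not multi-copy, the other being a region of 3240 bp at Gm13152 with 22.1%.

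Of 22359 protein-coding genes, 84 (0.376%) had a wide region and 1967 (8.80%) any candidate region centred within 5 kb of their TSS. The share of each gene list is given beside these. Among 22 immediate early and inflammatory genes, 2 had a wide region. One lay at Ptgs2, which encodes cyclooxygenase-2 (1019 bp, score 170.41, centre 121 bp upstream of the TSS, 2 C/EBP words), and one at Nfkbia, which encodes the NF-κB inhibitor IκBα (1019 bp, score 167.08, centre 792 bp downstream, 1 word). Among 19 cytokine receptor genes, Tnfrsf1a had one (1015 bp, score 153.16, centre 3 bp upstream, 0 words). The intervals of these lists, 1.12 to 29.2% of the first and 0.133 to 26% of the second, are wide, and the counts are small.

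The ribosomal protein list had 2 of 134 genes with a wide region. One of them was Rps29 (score 378.13, centre 74 bp upstream). Of 67 histone genes 1 did, Hist4h4, whose region of 1560 bp (score 302.39) lies 4706 bp from its TSS and is nearer to that of H2afj, a replication-independent histone gene, with 5 C/EBP words. Of 328 vomeronasal receptor genes 1 did, Vmn1r113, with multi-copy regions on either side (scores 66.57 and 60.07). Wide regions centred within 5 kb of the TSS were found at 0 of 5 C/EBP family genes, 0 of 27 stem and myeloid transcription factor genes, 0 of 22 granule and effector genes, 0 of 17 kinase, GTPase regulator and adhesion genes and 0 of 1113 olfactory receptor genes. Their exact 95% upper limits are 52.2%, 12.8%, 15.4%, 19.5% and 0.331%. The wide region in the Sfpi1 intron lies farther than this from the TSS of the longest Sfpi1 transcript. Starts of other transcripts were not used in these list counts, so the 0 of 27 holds only for the longest transcripts. Of the 27 transcription factor genes, 9 had a candidate region of any width near the TSS, among them Sfpi1, Myc, Myb and Meis1. Each list held at most 2 genes with a wide region, so these shares are a description of the lists.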

How the data were processed

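C/EBPα ChIP-seq of LSK cells was analysed from 1 deposited list of regions with a start, an end and a score. Per the labels and the study's methods, the authors mapped reads to mm9 with bowtie, which by default reports a read with several equal matches at 1 of them, and called regions with MACS against an IgG mock at a p of 1e-05. The submitters' processing notes name Bowtie 0.12.8, MACS 1.4.2 and bedtools 2.16.2. The deposited score is -log10 of the MACS p-value multiplied by 10. The authors later filtered these candidates by peak height, detection in both samples, IgG signal, clustering and visual inspection. These steps left only a small part of the candidates as high-confidence bound regions. None of these filters was applied here, and which wide regions passed them was not tested. The list holds no read numbers, so the depth is unknown.

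Sequence was read from NCBIM37, which is mm9, and genes from its GENCODE annotation, with the longest transcript of each protein-coding gene. Every 32-base word of each region was counted on both strands of the assembly. Word counts were compared with flanks of the same length that started 1000 bp outside. The intervals are exact binomial (Clopper-Pearson) and exact Poisson intervals at 95%. Regions were named as the 10 widest, the 10 highest in score, the 5 densest in C/EBP words among those not multi-copy, the 5 highest in multi-copy share and the 3 on either side of the limit, with list genes that had a wide region. Some genes covered by this rule are not reported here. The members, lists and measures were chosen with earlier results of these data known. Alternatives were other widths, scores, distances, words, windows and limits. Counting was tested on simulated sequence. Printed coordinates start at 1. Words were counted with numba 0.67.0 and numpy 2.4.6, sequence was read with samtools 1.23.1 and pysam 0.24.0, and intervals came from scipy 1.17.1 in Python 3.11.15.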

Additional observations from a re-analysis of the deposited data

How the results depend on the processing

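No paired analysis was possible because 1 list was analysed, and no library could be left out. The share near a TSS was 12.8% of wide and 3.40% of other regions within 1 kb, and 30.6% and 18.8% within 10 kb. It was 13.2% of the others with the TSSs of all transcripts, 29.4% of the wide with a limit of 1500 bp, and 28.1% and 11.5% at scores of at least 100. The multi-copy share was 24.7%, 61.1% and 80.4% of wide regions with limits of 900, 1200 and 1500 bp. It was 21.2% at scores of at least 100, 14.4% and 2.83% when 90% of the words had to be multi-copy, and 12.8% and 9.79% of the others with 24-base words or the central 500 bp. The share with a CpG-island-like centre was 6.88% and 1.44% at a CpG ratio of 0.75, and 11.1% and 5.88% of the wide at 1200 and 1500 bp. It was 3.79% of the others in the central 250 bp, 5.04% at scores of at least 100 and 2.33% without multi-copy regions. In all 22 alternatives of these 3 shares the wide regions were higher, and the intervals overlapped in 1, the CpG share at 1500 bp. The C/EBP words numbered 0.552 and 0.467 per kb for TTGCNNAA alone and 0.0359 and 0.0157 for TTGCGCAA. They were at 1.07 in the central 500 bp of the wide, 0.876 in the central 1000 bp of the others, and 1.01 and 0.967 at scores of at least 100. With limits of 1200 and 1500 bp they were 0.769 and 0.662 per kb in the wide, below the 0.787 and 0.788 of the others, with intervals that overlap. The wide regions were higher in the other 7 alternatives, in 3 of them with overlapping intervals. Leaving out the 3 regions richest in RUNX words, chosen after seeing the data, took that density from 0.638 to 0.482 per kb. The cause of these shifts was not tested.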

Other observations

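Another candidate lay within 10 kb of 78 wide regions (24.4%, 19.8 to 29.5%) and of 18% (17.4 to 18.6%) of the others. Among single-copy regions the shares were 19.3% (14.2 to 25.4%) of the wide and 18.5% (17.9 to 19.1%) of the others, and among multi-copy regions 33.6% (25 to 43.1%) and 13% (11.4 to 14.7%). In all, 109 of the 320 had another wide region within 500 kb. In 5 places, pairs of wide regions were separated by only 18 to 223 bp, at A530032D15Rik (223 bp), C130026I21Rik (18 bp), Sp110 (106 bp), Gm17019 (47 bp) and between 3110070M22Rik and Gm7120 (66 bp). Sharing with another wide region, at 10% or more of the 32-base words of the smaller of the pair, was found for 46 of the 320.

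Among regions under 1000 bp, the palindrome TTGCGCAA occurred in 166, of which 73 had a score of at least 200, 61 were near a TSS and 2 were multi-copy. In the 16 wide regions with it, 10 had a score of at least 200. Such scores were held by 319 regions under 1000 bp and by 49 wide regions in all.

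The 5 regions with the highest multi-copy share, 100% in each, lay in intron 3 of Mlc1, near Gm17379, near 2610036A22Rik, near A530032D15Rik and in an intron near Plac9, with scores of 131.77, 113.64, 103.94, 92.52 and 79.62. The region at Gm10801 (chr2:98502193-98503309) had a score of 513.16 with 61.9% multi-copy words, and 30 of its 1086 words occurred at over 1000 positions each.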
